A study of Mus musculus with 24 samples.

Results

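The Slc25a genes encode mitochondrial solute carriers, and 47 of the 24421 genes in the count table had a symbol made of Slc25a and a number. These 47 carriers were followed in 3 B cell populations sorted from the bone marrow of mice with or without an intact copy of Vhl. All 8 mice carried 1 Mb1-Cre allele, a recombinase driven from the B lineage gene Mb1 and so active in B lineage cells. In 4 mice both Vhl alleles were floxed (flox/flox), and in 4 control mice 1 allele was floxed and the other wild type (flox/WT). Controls therefore carried the recombinase and 1 floxed allele too. From each mouse 1 library was made of a joint pro-B and pre-B population (proBpreB), 1 of immature and 1 of mature B cells, which gave 6 groups of 4 libraries. Mice were numbered 1 to 4 within each genotype, by the number in the labels. Neither the age of the mice nor the surface markers used for sorting is stated in the labels.

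Carriers of this family sit mostly in the inner mitochondrial membrane and exchange nucleotides, phosphate, carboxylates, amino acids, cofactors and iron between the cytosol and the matrix. Vhl is the part of a ubiquitin ligase that binds the alpha subunits of the hypoxia-inducible factors (HIF) and sends them for degradation when oxygen is present. HIF is known for raising glycolytic genes and for turning mitochondrial use of pyruvate down, so the carriers lie at the border between both compartments of metabolism. HIF dimers bind DNA at the core letters ACGTG or GCGTG.

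Promoter stretches are shown for the carriers that passed the test between genotypes in the same direction in at least 2 populations, except Slc25a35. Slc25a36, a pyrimidine nucleotide carrier, was the carrier higher in flox/flox cells of all 3 populations. Slc25a4, an adenine nucleotide carrier, Slc25a11, a carboxylate carrier, and Slc25a24, an ATP-Mg/phosphate carrier, were higher in 2 populations, and Slc25a38, a glycine carrier needed for heme synthesis, was lower in 2. All but Slc25a36 were added after values had been seen. Each line holds the longest run of bases from the 250 before the RefSeq start that no GENCODE exon covers, read 5′ to 3′ on the strand of the gene, with every ACGTG or GCGTG on either strand in capitals.
Slc25a36 (GRCm38, chr9:97111158-97111291, minus strand): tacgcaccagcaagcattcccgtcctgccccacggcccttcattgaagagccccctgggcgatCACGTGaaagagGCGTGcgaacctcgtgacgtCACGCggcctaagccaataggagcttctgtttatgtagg
Slc25a4 (GRCm38, chr8:46211285-46211312, minus strand): atacaacggtccacatgcagcagagaca
Slc25a11 (GRCm38, chr11:70647059-70647234, minus strand): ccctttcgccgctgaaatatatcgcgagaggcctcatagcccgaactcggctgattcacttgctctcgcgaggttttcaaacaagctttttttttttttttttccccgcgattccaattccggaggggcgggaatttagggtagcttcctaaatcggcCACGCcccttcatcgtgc
Slc25a24 (GRCm38, chr3:109122899-109123148, plus strand): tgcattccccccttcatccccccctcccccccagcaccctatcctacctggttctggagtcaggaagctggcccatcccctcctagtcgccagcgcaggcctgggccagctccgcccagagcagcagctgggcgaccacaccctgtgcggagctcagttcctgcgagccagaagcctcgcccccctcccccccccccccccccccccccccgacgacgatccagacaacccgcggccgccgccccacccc
Slc25a38 (GRCm38, chr9:120110132-120110373, plus strand): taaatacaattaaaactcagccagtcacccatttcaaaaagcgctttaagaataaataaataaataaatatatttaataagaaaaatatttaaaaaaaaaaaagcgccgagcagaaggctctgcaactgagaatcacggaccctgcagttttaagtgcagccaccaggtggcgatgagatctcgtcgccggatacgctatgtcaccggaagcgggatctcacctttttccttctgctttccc
The Slc25a36 stretch held 4 matches, which began at -187, -186, -175 and -155 from the start. Those at -187 and -186 overlap within CACGTG, since it reads the same on both strands. The Slc25a11 stretch held 1, at -37, and the other 3 lines held 0. The lines differ in length, and that of Slc25a4 holds 28 bases. Over whole windows of 300 bases, 250 before and 50 after the start, 43.8% of all 32851 mouse promoters in the RefSeq table held either motif. Of the 39 carriers with enough reads to test, 30 matched the table with 40 promoters, and 65.0% of these held either motif. The share was 77.8% of 9 promoters of carriers higher in flox/flox cells in any population, 50% of 6 promoters of lower ones and 64.0% of 25 promoters of the rest. These shares describe letters and were not tested.

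Total counts ran from 7850186 to 11863949 per library. Levels are given as CPM, counts scaled to the library total with TMM factors, and 3 counts, the limit that a count of 0 allows in 1 library, corresponded to 0.231 to 0.418 CPM, for counting error only. Vhl was at 23.0 to 27.8 CPM in proBpreB flox/WT and at 7.96 to 15.1 CPM in proBpreB flox/flox libraries. In immature cells it was at 26.7 to 47.8 and 3.07 to 8.15 CPM, and in mature cells at 26.3 to 32.4 and 5.39 to 9.79 CPM. By the group means, Vhl was reduced least in proBpreB cells, from 25.3 to 10.1 CPM. The part of this in differences between populations was not tested. All 6 B lineage markers examined, among them Cd79a and Pax5, had reads in every group, and 9 of 10 pro-B and pre-B markers fell from proBpreB to immature cells in flox/WT mice. RNA of other cells was present too. None of 14 erythroid markers was at 0 in any group, and their summed level was 1669 to 3968 CPM in proBpreB, 2560 to 19069 CPM in immature and 3841 to 21222 CPM in mature libraries. The 13 neutrophil and monocyte markers summed to 3909 to 5824 CPM in proBpreB libraries. In immature libraries they summed to 7983 to 9428 CPM in flox/WT and 11679 to 15661 CPM in flox/flox mice. In mature libraries they summed to 11278 to 17686 and 12416 to 20192 CPM. The 6 B lineage markers summed to 2973 to 4903 CPM in proBpreB, 6698 to 8417 CPM in immature and 5808 to 8502 CPM in mature libraries. In these bulk samples, fewer cells of a type and less RNA per cell cannot be told apart.

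Together the 47 carriers took 0.170% to 0.232% of the counts of a library. Their summed level was 1895 ± 34.4 CPM (SD, n = 4) in proBpreB flox/WT and 1762 ± 39.7 in proBpreB flox/flox cells, 2161 ± 202 and 2294 ± 135 in immature cells, and 1856 ± 63.6 and 1930 ± 101 in mature cells. Per kilobase of exon, Slc25a5, an ADP/ATP carrier, had the highest level in all 6 groups, from 272 CPM per kb in mature flox/flox to 428 CPM per kb in immature flox/WT cells. Slc25a11, which exchanges 2-oxoglutarate for malate, came next, from 55.7 CPM per kb in proBpreB flox/WT to 119 CPM per kb in immature flox/flox cells. The adenine nucleotide carrier Slc25a4, the phosphate carrier Slc25a3 and the glutathione carrier Slc25a39 followed in immature and mature cells of both genotypes. The value for Slc25a5 is uncertain, since 33.8% of its 50-base words also occur in transcripts of 8 other genes, mostly processed copies. Exon lengths join all GENCODE exons of a gene, used in these cells or not, so the order also depends on the annotation. They were 5.55 kb for Slc25a3 and 2.12 kb for Slc25a11.

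Single carriers differed between flox/flox and flox/WT cells, while the median of the family stayed near that of all genes. Slc25a36 rose in all 3 populations. Slc25a4, Slc25a11 and Slc25a24 rose in immature and mature cells, while Slc25a35 fell in both and Slc25a38 fell in proBpreB and mature cells. With edgeR's quasi-likelihood test and a Benjamini-Hochberg adjusted p under 0.05 over 12850 genes, 1 of the 39 tested carriers was higher and 1 lower in proBpreB flox/flox cells, where 3.39% of all tested genes were higher and 2.77% lower. In immature cells 6 carriers were higher and 3 lower, against 10.2% and 10.5% of all genes. In mature cells 6 were higher and 4 lower, against 9.69% and 6.62% of all genes. The median log2 fold change of the carriers was -0.09, -0.01 and -0.04 in proBpreB, immature and mature cells, and that of all genes was -0.00, 0.00 and 0.01. Over the 3 populations, 8 carriers were higher in at least 1, 6 were lower in at least 1, 0 went in opposite directions and 25 passed the test in none. The same counts over all genes were not computed, so these pooled carrier counts have no background to be read against. Some counts rested on single libraries: without flox/WT mouse 1, 2 carriers were higher in proBpreB cells and 5 were lower in immature cells, and without flox/flox mouse 2, 2 were lower in mature cells. Marker genes moved in the same comparisons. In proBpreB flox/flox cells 3 of 6 B lineage markers fell, and of 11 mature B cell markers 6 fell and 2 rose. In immature cells all 20 proliferation genes examined fell, as did 5 of 11 mature B cell markers, 1 of which rose, and 1 of 6 B lineage markers. Of 10 pro-B and pre-B markers 3 rose and 2 fell there, and 7 of 14 erythroid, 3 of 13 neutrophil and monocyte and 2 of 11 T and natural killer cell markers rose. In mature cells 11 of 20 proliferation genes, 4 of 10 pro-B and pre-B, 3 of 14 erythroid and 3 of 11 T and natural killer cell markers rose, while 2 of 6 B lineage and 3 of 11 mature B cell markers fell. Of 7 tested plasma cell markers 0, 2 and 1 rose and 1, 3 and 1 fell in proBpreB, immature and mature cells, and of 8 plasmacytoid dendritic cell markers 0, 1 and 1 rose and 1, 1 and 2 fell. The part of these markers in the carrier results was not tested.

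**Figure D1:**
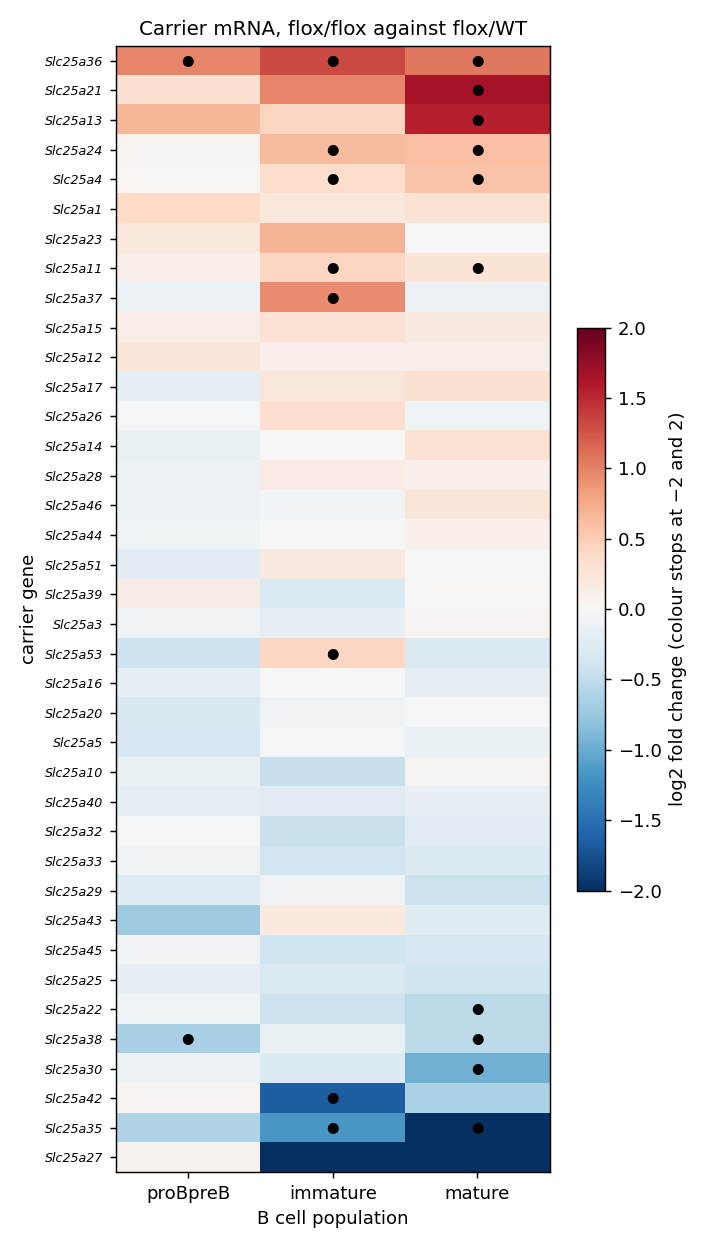
Log2 fold change of 38 of the 39 tested carriers (rows) between flox/flox and flox/WT cells in each population (columns), 4 mice per group; red is higher and blue lower in flox/flox, the colour stops at -2 and 2, and dots mark an edgeR adjusted p under 0.05. Slc25a36 alone has a dot in all 3 columns. The dark cells of Slc25a27 carry no dot, and its counts were few: 9 in immature flox/WT, 0 in immature flox/flox and 7 in mature flox/flox cells.

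Among the 8 nucleotide and cofactor carriers, 1 was higher in proBpreB, 1 higher and 2 lower in immature and 1 higher in mature flox/flox cells. Over all genes 3.39% were higher in proBpreB, 10.2% higher and 10.5% lower in immature and 9.69% higher in mature cells. Neither this nor any later role group was tested as a set. Slc25a36 (chromosome 9, 97075281 to 97111041, GRCm38), whose promoter opens the lines above, stood at 33.8, 24.2, 23.9 and 30.6 CPM in the proBpreB cells of flox/WT mice 1 to 4 and at 48.9, 61.6, 54.4 and 57.1 CPM in those of flox/flox mice. In immature cells it was at 37.0, 30.8, 35.3 and 23.3 CPM in flox/WT and at 65.8, 82.4, 75.5 and 90.8 CPM in flox/flox mice. In mature cells it was at 50.7, 35.2, 43.3 and 40.4 CPM in flox/WT and at 97.0, 56.4, 117 and 82.3 CPM in flox/flox mice. Every flox/flox library lay above every flox/WT library of its population, and the lowest mature flox/flox value, in mouse 2, was close to the highest control. The log2 fold changes were 0.98 (SE 0.18, edgeR adjusted p = 0.000381), 1.32 (SE 0.18, adjusted p = 2.25e-06) and 1.06 (SE 0.18, adjusted p = 7.17e-05), or 1.97-fold, 2.49-fold and 2.08-fold. The rises did not differ detectably between populations: the edgeR interaction of immature against proBpreB cells was 0.34 (95% interval -0.19 to 0.86, adjusted p = 0.448), and those of mature against proBpreB and against immature cells had adjusted p-values of 0.930 and 0.627. Of the 50-base words of Slc25a36, 6.70% also occur in Gm13217. Slc25a33, the other pyrimidine nucleotide carrier, passed the test in no genotype comparison.

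Slc25a42, a coenzyme A carrier, fell in immature cells from 2.88 ± 1.08 to 0.922 ± 0.557 CPM (SD, n = 4), a log2 fold change of -1.65 (SE 0.43, edgeR adjusted p = 0.00611). Its groups overlapped, since flox/WT mouse 1 was at 1.26 CPM and flox/flox mouse 1 at 1.60 CPM. Slc25a51, the NAD carrier, and Slc25a32, a folate and FAD carrier, passed the test in no genotype comparison.

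Of the 3 tested ADP/ATP and phosphate carriers, 1 was higher in immature and 1 in mature cells, in both cases Slc25a4. Over all genes 10.2% and 9.69% were higher there. Slc25a4 encodes the adenine nucleotide translocator that swaps matrix ATP for cytosolic ADP. In proBpreB cells it was at 85.9, 91.2, 87.8 and 85.5 CPM in flox/WT mice and at 82.0, 96.9, 88.8 and 93.5 CPM in flox/flox mice, which overlap. In immature cells it was at 119, 107, 105 and 120 CPM in flox/WT and at 154, 152, 134 and 138 CPM in flox/flox mice. In mature cells it was at 54.8, 67.4, 56.0 and 56.3 CPM in flox/WT and at 73.2, 101, 94.6 and 79.5 CPM in flox/flox mice. The genotypes did not overlap in either of these populations. The log2 fold changes were 0.04 (SE 0.10, edgeR adjusted p = 0.875) in proBpreB, 0.36 (SE 0.10, adjusted p = 0.0136) in immature and 0.57 (SE 0.11, adjusted p = 0.000268) in mature cells. The immature call was lost without flox/WT mouse 2 (adjusted p = 0.0543) or 3 (adjusted p = 0.0509). Across the interaction of mature against proBpreB cells 3.06% of all genes were called, and Slc25a4 was the 1 carrier among them, with a difference of 0.53 (95% interval 0.22 to 0.84, adjusted p = 0.0460). That call did not hold under 14 of 22 alternatives. Of these, 12 left out a library (proBpreB flox/WT mouse 1, 2, 3 or 4, proBpreB flox/flox mouse 1, 3 or 4, mature flox/WT mouse 1, 3 or 4, or mature flox/flox mouse 2 or 3), with an adjusted p of up to 0.113, without proBpreB flox/flox mouse 1.

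Slc25a5, the more abundant paralog of Slc25a4 per kilobase, passed the test in no genotype comparison, although all 4 proBpreB flox/flox libraries (423 to 502 CPM) lay below the 4 flox/WT libraries (532 to 609 CPM). Its log2 fold change there was -0.33 (95% interval -0.59 to -0.07, edgeR adjusted p = 0.115), and in immature and mature cells -0.04 and -0.13. Slc25a3, which imports the phosphate used for ATP synthesis, had log2 fold changes of -0.07, -0.17 and 0.06 in proBpreB, immature and mature cells, with overlapping groups throughout.

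The ATP-Mg/phosphate carriers set the adenine nucleotide content of the matrix in response to cytosolic calcium. Of the 3 tested, Slc25a24 was higher in immature and in mature flox/flox cells, where 10.2% and 9.69% of all genes were higher. It was at 25.8, 24.9, 17.3 and 22.2 CPM in proBpreB flox/WT and at 20.6, 25.7, 22.5 and 25.2 CPM in proBpreB flox/flox mice. In immature cells it was at 30.4, 28.3, 27.4 and 25 CPM in flox/WT and at 45.3, 43.8, 35.4 and 48.4 CPM in flox/flox mice. In mature cells it was at 28.6, 22.4, 20.3 and 19.6 CPM in flox/WT and at 37.8, 32.1, 38.1 and 29.8 CPM in flox/flox mice. The genotypes overlapped in proBpreB cells and were apart in the later populations. The log2 fold changes were 0.06 (SE 0.15, edgeR adjusted p = 0.883), 0.64 (SE 0.15, adjusted p = 0.00176) and 0.60 (SE 0.15, adjusted p = 0.00446). The difference of 0.58 between the immature and the proBpreB effect had a 95% interval of 0.15 to 1.01 and did not pass the adjusted threshold (adjusted p = 0.0683). Slc25a23 and Slc25a25, of the same group, passed in no genotype comparison.

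**Figure D2:**
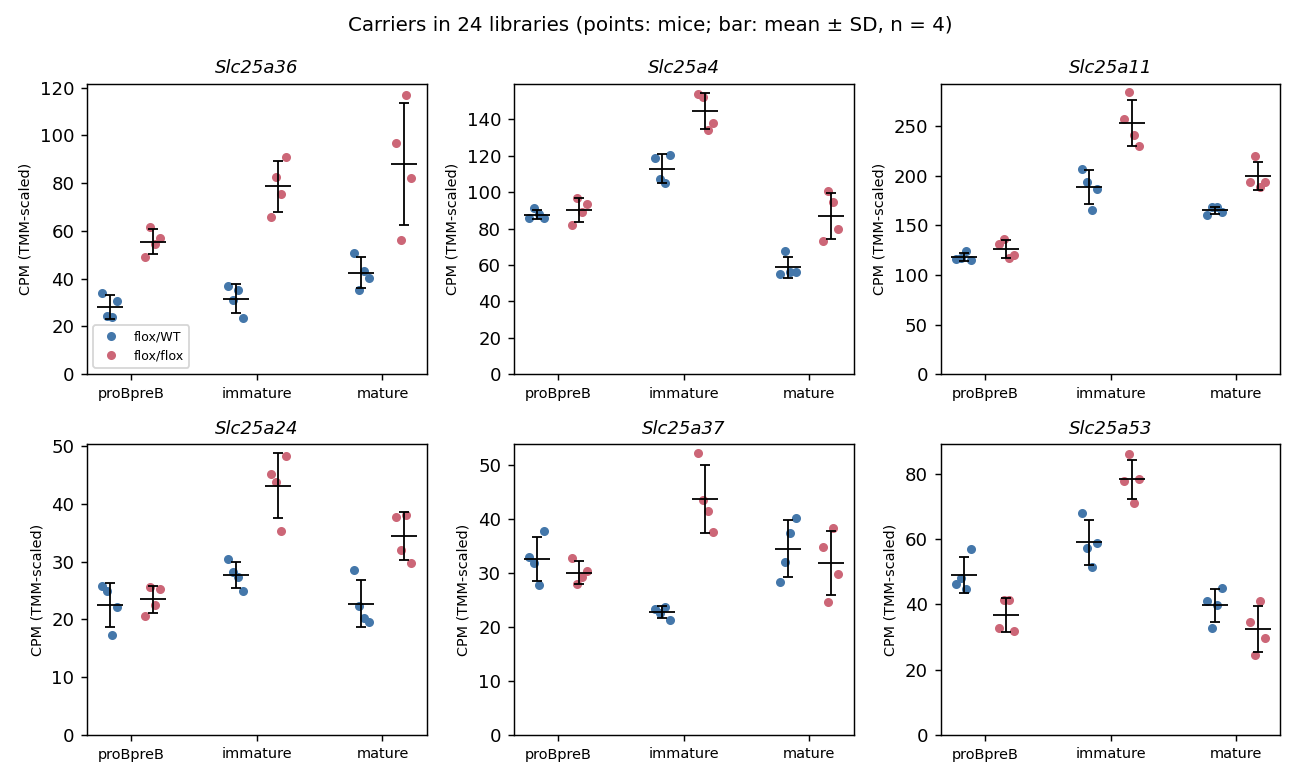
Level of 6 carriers in CPM (vertical axes, each from 0) by population, with 1 point per mouse and bars for the mean ± SD of 4 mice; blue is flox/WT and red flox/flox. Slc25a36 separates in all 3 populations, Slc25a4, Slc25a11 and Slc25a24 in immature and mature cells, and Slc25a37 in immature cells; Slc25a53 is above control in immature cells and below it, without a call, in proBpreB cells.

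Carboxylate carriers link the Krebs cycle to the cytosol. Of the 4 tested, 1 was higher in immature and 2 in mature flox/flox cells, and 0 were lower. Over all genes 10.2% and 9.69% were higher and 10.5% and 6.62% lower in these populations. Slc25a11, a limb of the malate-aspartate shuttle, was at 116, 117, 124 and 115 CPM in proBpreB flox/WT and at 131, 136, 117 and 120 CPM in proBpreB flox/flox mice. In immature cells it was at 207, 193, 166 and 187 CPM in flox/WT and at 257, 284, 241 and 230 CPM in flox/flox mice. In mature cells it was at 161, 168, 168 and 163 CPM in flox/WT and at 194, 220, 189 and 194 CPM in flox/flox mice. The genotypes overlapped only in proBpreB cells. The log2 fold change was 0.09 (SE 0.09, edgeR adjusted p = 0.647) in proBpreB, 0.43 (SE 0.09, adjusted p = 0.00111) in immature and 0.27 (SE 0.09, adjusted p = 0.0443) in mature cells. No interaction between populations passed for Slc25a11, so a difference between these effects was not detected. The mature call did not hold under 9 of 14 alternatives: 7 of these left out a library (flox/flox mouse 1, 2 or 4 or any flox/WT mouse), with adjusted p-values from 0.0596 to 0.130. Reads of the antisense gene Rnf167 could enter the value, since 8.92% of the exon bases of Slc25a11 overlap exons of another gene.

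Slc25a21, a carrier of 2-oxoadipate and 2-oxoglutarate, had low counts. It rose in mature cells from 0.834 ± 0.165 to 2.62 ± 0.974 CPM (SD, n = 4; log2 fold change 1.64, SE 0.50, edgeR adjusted p = 0.0233). The call was lost without flox/flox mouse 1 (adjusted p = 0.0528) or 3 (0.0830), or flox/WT mouse 1 (0.0579) or 4 (0.0555). Slc25a21 was highest in mature and immature flox/flox cells (0.538 and 0.359 CPM per kb of exon), with at most 0.185 in the other groups. The filter on counts can be met by 1 group, so these groups may have brought Slc25a21 into the test. Its p-value does not allow for that. Slc25a1, the citrate carrier, was at 46.5 to 60.1 CPM in proBpreB flox/WT and at 64.8 to 81.4 CPM in proBpreB flox/flox libraries, with no overlap and an adjusted p of 0.0547. Slc25a10, the dicarboxylate carrier, had a log2 fold change of -0.46 in immature cells (adjusted p = 0.0517).

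Aspartate and glutamate carriers complete the malate-aspartate shuttle and feed glutamate to the matrix. Of the 3 tested, 1 was higher and 1 lower in mature flox/flox cells and 0 passed in the other populations. Over all genes 9.69% were higher and 6.62% lower in mature cells. Slc25a13, the aspartate/glutamate exchanger citrin, was at 5.67, 2.01, 3.85 and 1.24 CPM in mature flox/WT and at 11.1, 7.42, 8.66 and 10.1 CPM in mature flox/flox mice. No flox/flox value lay within the control range, and the log2 fold change was 1.56 (SE 0.31, edgeR adjusted p = 0.000690). In proBpreB cells it was at 7.63 to 13.5 CPM in flox/WT and 14.1 to 17.3 CPM in flox/flox mice, with a log2 fold change of 0.66 that did not pass (adjusted p = 0.180). Slc25a22, a glutamate carrier, fell in mature cells from 24.6 ± 3.97 to 16.9 ± 2.89 CPM (log2 fold change -0.54, SE 0.16, adjusted p = 0.0192). Its call was lost without flox/flox mouse 2 (adjusted p = 0.0637) or 3 (0.0502) or flox/WT mouse 4 (0.0947), and with only the mature libraries in the fit (0.0733). Slc25a12, the paralog of Slc25a13, passed in no genotype comparison.

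Of 8 tested carriers of other amino acids, carnitine, S-adenosylmethionine and glutathione, 1 was lower in proBpreB and 1 in mature flox/flox cells. In immature cells 0 passed. Over all genes 2.77% were lower in proBpreB and 6.62% in mature cells. Slc25a38 was the carrier called in both cases. It was at 25, 25.1, 23.1 and 30.5 CPM in proBpreB flox/WT and at 16.4, 16.4, 17.2 and 16.3 CPM in proBpreB flox/flox mice. In immature cells it was at 26.4, 22.8, 20.4 and 21.5 CPM in flox/WT and at 24.8, 19.8, 18.7 and 18.7 CPM in flox/flox mice. In mature cells it was at 27.4, 29.4, 23.1 and 31.9 CPM in flox/WT and at 21.3, 16.6, 20.7 and 19.1 CPM in flox/flox mice. The genotypes were apart in proBpreB and mature cells and overlapped in immature cells. The log2 fold changes were -0.65 (SE 0.14, edgeR adjusted p = 0.00291), -0.15 (SE 0.14, adjusted p = 0.496) and -0.53 (SE 0.14, adjusted p = 0.00919). No interaction between populations passed for Slc25a38, so a difference between these effects was not detected. With only the mature libraries in the fit, the mature adjusted p was 0.0507. Slc25a20, the carnitine-acylcarnitine carrier, and the glutathione carriers Slc25a39 and Slc25a40 passed in no genotype comparison.

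The remaining group holds relatives of the uncoupling proteins and carriers without an assigned substrate, of which 8 were tested. Of these, 1 was higher and 1 lower in immature and 2 lower in mature flox/flox cells. Over all genes 10.2% were higher and 10.5% lower in immature and 6.62% lower in mature cells. Slc25a35 was at 5.06, 4.31, 7.27 and 7.81 CPM in proBpreB flox/WT and at 3.56, 4.33, 3.89 and 4.31 CPM in proBpreB flox/flox mice. In immature cells it was at 1.51, 1.27, 4.54 and 4.26 CPM in flox/WT and at 0.932, 1.67, 1.55 and 1.13 CPM in flox/flox mice. In mature cells it was at 3.98, 4.65, 5.47 and 6.66 CPM in flox/WT and at 0.770, 2.04, 0.951 and 1.22 CPM in flox/flox mice. The mature genotypes were far apart, and the immature controls split into a pair near the flox/flox values and a pair well above them. The log2 fold changes were -0.60 (SE 0.34, edgeR adjusted p = 0.362), -1.16 (SE 0.40, adjusted p = 0.0358) and -2.05 (SE 0.39, adjusted p = 0.000329). The immature call was lost without flox/WT mouse 3 (adjusted p = 0.165) or 4 (0.137) or flox/flox mouse 1 (0.0981) or 4 (0.0870), and with only the immature libraries in the fit (0.0915). Of the exon bases of Slc25a35, 31.3% overlap the antisense gene Rangrf, and without a stated use of strand the reads of both cannot be told apart.

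Slc25a30, a relative of the uncoupling proteins, fell in mature cells from 8.47 ± 3.19 to 4.35 ± 2.22 CPM with overlapping groups (log2 fold change -0.96, SE 0.30, edgeR adjusted p = 0.0272). The call was lost without flox/flox mouse 1 (adjusted p = 0.110) or 2 (0.0897) or flox/WT mouse 2 (0.135), and with only the mature libraries in the fit (0.115).

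**Figure D3:**
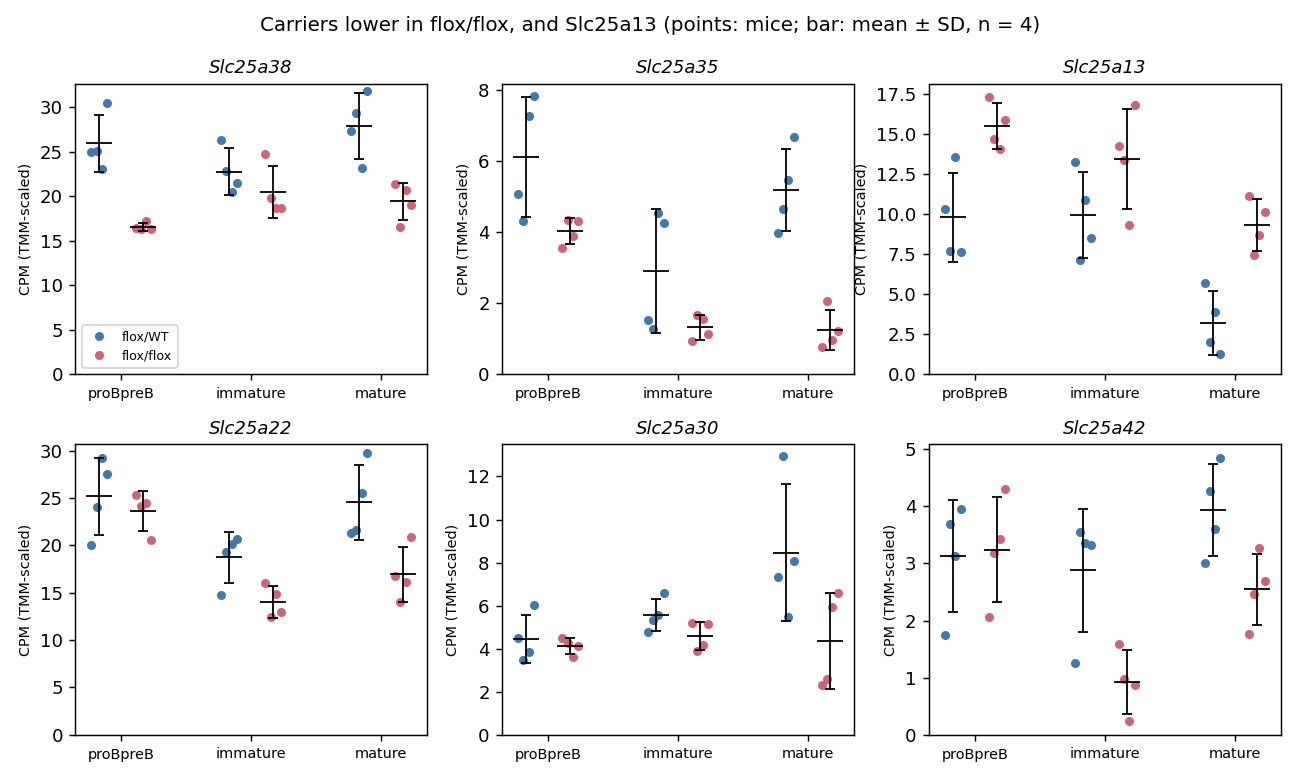
Level of 5 carriers that were lower in flox/flox cells of at least 1 population, and of Slc25a13, which was higher in mature cells, in CPM (vertical axes, each from 0); points are mice, bars the mean ± SD of 4 mice, blue flox/WT and red flox/flox. Slc25a38 is apart in proBpreB and mature cells, and Slc25a35 in mature cells, where the flox/flox values run from 0.770 to 2.04 CPM.

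Slc25a37 (mitoferrin 1) imports iron for heme and iron-sulfur clusters and is known for its high level in red cell precursors, while Slc25a28 (mitoferrin 2) serves other cells. Slc25a37 was at 23.4, 22.6, 23.6 and 21.3 CPM in immature flox/WT and at 52.2, 43.5, 41.3 and 37.5 CPM in immature flox/flox mice. All 4 flox/flox libraries lay above the controls, by 1.92-fold in the fit (log2 fold change 0.94, SE 0.14, edgeR adjusted p = 1.17e-05). In proBpreB and mature cells the log2 fold change was -0.11 in each, with overlapping groups. The genotype effect thus differed between populations, by 1.06 (95% interval 0.64 to 1.47, adjusted p = 0.000667) in immature against proBpreB cells and by -1.06 (-1.48 to -0.64, adjusted p = 0.000658) in mature against immature cells. These 2 interactions passed for 10.9% and 7.74% of all genes and for 2 carriers each.

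In immature flox/flox cells erythroid marker RNA was higher beside Slc25a37, and in mature flox/flox cells 3 of 14 erythroid markers rose while Slc25a37 did not pass. The summed level of 14 markers was 8104, 5338, 2560 and 7039 CPM in immature flox/WT and 17273, 19069, 16472 and 10327 CPM in immature flox/flox mice, and 7 markers rose, among them Alas2 (log2 fold change 1.58, edgeR adjusted p = 0.00602). In mature cells the sum was 10793, 8922, 3841 and 8222 CPM in flox/WT and 12315, 21222, 20339 and 7828 CPM in flox/flox mice. The mature flox/flox mice 2 and 3 had the highest sums of all 24 libraries, with Slc25a37 at 24.5 and 38.2 CPM. The part of erythroid RNA in the Slc25a37 result was not tested. Slc25a28 passed in no genotype comparison, with log2 fold changes of -0.12, 0.16 and 0.10 in proBpreB, immature and mature cells. Of the exon bases of Slc25a37, 6.33% overlap antisense genes, and 6.99% of its 50-base words also occur in Gm16867.

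**Figure D4:**
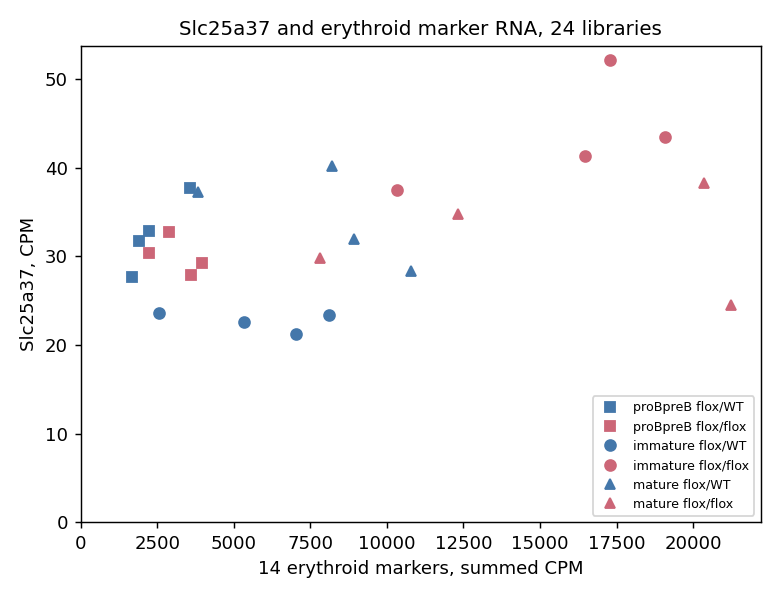
Slc25a37 (vertical axis, CPM) against the summed CPM of 14 erythroid markers (horizontal axis) in 24 libraries; squares are proBpreB, circles immature and triangles mature cells, blue flox/WT and red flox/flox. The 4 immature flox/flox libraries stand above the 4 immature controls on both axes, and the mature flox/flox libraries with sums of 21222 and 20339 CPM have Slc25a37 at 24.5 and 38.2 CPM.

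Slc25a53, a carrier without an assigned substrate, was the second carrier whose genotype effect differed between populations. It was at 68.0, 57.4, 51.4 and 58.8 CPM in immature flox/WT and at 77.8, 85.9, 71.1 and 78.4 CPM in immature flox/flox mice, with no overlap (log2 fold change 0.41, SE 0.14, edgeR adjusted p = 0.0343). In proBpreB cells it was at 46.3, 48.0, 44.7 and 57.0 CPM in flox/WT and at 32.8, 41.4, 41.3 and 31.8 CPM in flox/flox mice, again apart but below control (-0.41, adjusted p = 0.0806). The difference between these effects was 0.82 (95% interval 0.41 to 1.24, adjusted p = 0.00632) and that of mature against immature cells was -0.70 (-1.12 to -0.28, adjusted p = 0.0259). The immature call alone was lost without flox/WT mouse 2 (adjusted p = 0.0859), 3 (0.114) or 4 (0.0695), flox/flox mouse 1 (0.0579), 2 (0.102) or 4 (0.0650), or a filter on low counts (0.0560). The mature against immature difference was lost without immature flox/WT mouse 2 (0.0565) or 3 (0.0657), immature flox/flox mouse 2 (0.0590), mature flox/flox mouse 2 (0.0564) or 4 (0.0543), or mature flox/WT mouse 4 (0.0625).

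The other genes of mitochondrial transport were read beside the carriers. Of the family members with other symbols, Ucp1, Ucp2, Ucp3, Mtch1 and Mtch2, 3 were tested, and Mtch1 rose in immature cells (log2 fold change 0.42, edgeR adjusted p = 0.0115). Ucp2 stood at 2110 CPM in immature flox/WT cells and its log2 fold changes were 0.04, -0.01 and -0.09. Of 23 other mitochondrial membrane transporters, 1 was higher and 3 lower in proBpreB, 0 and 3 in immature, and 1 and 5 in mature flox/flox cells. Over all tested genes the shares were those given above, 3.39% and 2.77%, 10.2% and 10.5%, and 9.69% and 6.62%. The immature counts thus lay near or below the background, and the counts of lower ones in proBpreB and mature cells lay above it. Whether the list differed from the background was not tested. Vdac1, the main pore of the outer membrane, rose in proBpreB (0.80, adjusted p = 0.000233) and mature cells (0.62, adjusted p = 0.00241). Mpc2, a subunit of the pyruvate carrier, fell from 88.4 to 44.1 CPM in proBpreB cells (-1.0, adjusted p = 8.27e-06). It fell in mature cells too (-0.41, adjusted p = 0.0462), and the difference between both effects did not pass the interaction test. Tmem14c, which serves heme synthesis, and Smdt1, a part of the calcium uniporter, fell in proBpreB cells (-0.60 and -0.43). Among the sideroflexins, the serine carrier Sfxn1 fell in immature cells (-0.54) and Sfxn4 in mature cells (-1.60). Sfxn2 and the ion exchanger Letm1 fell in immature (-0.87 and -0.52) and mature cells (-1.06 and -0.72). Abcb10, also of heme synthesis, fell in mature cells (-0.58). These calls do not show that effects differed between populations. In the interaction of mature against proBpreB cells 0 of the 23 transporters passed, where 3.06% of all genes did. With immature against proBpreB cells 1 was higher and 1 lower (10.9% of all genes in either direction), and with mature against immature cells 0 and 1 (7.74%).

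Of 15 tested shuttle and carrier-linked enzymes, 0 were higher and 1 lower in proBpreB, 1 and 3 in immature and 0 and 2 in mature flox/flox cells, against the same shares of all genes. Gpd1l, related to the cytosolic enzyme of the glycerol phosphate shuttle, fell in all 3 populations (log2 fold changes -0.81, -0.47 and -0.75, edgeR adjusted p = 7.09e-07, 0.000595 and 1.69e-06). Got2, the mitochondrial aspartate aminotransferase that works with Slc25a11 and Slc25a12, fell in immature cells (-0.46, adjusted p = 0.0163), as did the ornithine aminotransferase Oat (-0.81, adjusted p = 4.76e-06). Cpt1a, which forms the acylcarnitines carried by Slc25a20, rose in immature cells with overlapping groups (0.52, adjusted p = 0.0276), and Crat, carnitine acetyltransferase, fell in mature cells (-0.60, adjusted p = 0.00316).

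More carriers passed the test between stages than between genotypes, and 31 of the 39 tested passed in at least 1 of the 4 stage comparisons. All genes behaved alike, with 3409 to 7188 genes called per stage comparison and 791 to 2655 per genotype comparison. The share of all genes called in at least 1 stage comparison was not computed, so the pooled count of 31 has no background to be read against. From proBpreB to immature flox/WT cells 10 carriers rose and 9 fell, against 24.0% and 25.4% of all genes, with a median log2 fold change of 0.17 against -0.00 for all genes. The NAD carrier Slc25a51 fell from 146 ± 14.5 to 58.0 ± 4.84 CPM (SD, n = 4; log2 fold change -1.33, SE 0.11, edgeR adjusted p = 6.80e-11). The glutathione carrier Slc25a40 fell from 15.5 ± 3.38 to 4.78 ± 0.576 CPM (-1.70, SE 0.26, adjusted p = 3.21e-06), while its relative Slc25a39 rose (0.61, adjusted p = 0.000123). Slc25a27, an uncoupling protein relative, fell from 2.27 ± 0.744 to 0.236 ± 0.109 CPM (-3.21, adjusted p = 0.000365), and both sums rest on few counts, 103 and 9. Its level was highest in proBpreB cells, through which it may have passed the filter on counts, and the p-value does not allow for that. Slc25a35 (-1.04), Slc25a1 (-0.56) and Slc25a45 (-0.53) fell too. Among the largest rises were the ornithine carrier Slc25a15 (0.83), the folate carrier Slc25a32 (0.82), the aspartate/glutamate exchanger Slc25a12 (0.72) and Slc25a11 (0.67). At this step 9 of 13 neutrophil and monocyte, 7 of 14 erythroid and all 11 mature B cell markers rose, and 14 of 20 proliferation genes, 10 of 11 T and natural killer cell and 5 of 8 plasmacytoid dendritic cell markers fell; their part in the carrier results was not tested. The Slc25a35 fall was lost without immature flox/WT mouse 1 (adjusted p = 0.0566) or 2 (0.0628) or proBpreB flox/WT mouse 4 (0.0515).

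From immature to mature flox/WT cells 2 carriers rose and 7 fell, against 15.6% and 17.1% of all genes, with a median of 0.04 against 0.01. With the mouse as a block 4 rose, and without flox/WT mouse 1 of immature cells 4 rose, or 5 without mature flox/WT mouse 1 or 2. Slc25a37 (0.60, edgeR adjusted p = 0.00150) and Slc25a45 (0.63, adjusted p = 0.00245) rose. Slc25a13 fell from 9.93 ± 2.70 to 3.19 ± 1.98 CPM (-1.65, adjusted p = 0.000126) and Slc25a4 from 113 ± 7.87 to 58.6 ± 5.87 CPM (-0.95, adjusted p = 3.56e-08), both with no overlap. Slc25a15 (-0.83), Slc25a10 (-0.63), Slc25a53 (-0.57) and Slc25a5 (-0.53) fell as well. All 20 proliferation genes and 4 of 10 pro-B and pre-B markers fell in this comparison too, and 9 of 11 mature B cell and 5 of 13 neutrophil and monocyte markers rose; their part in the carrier results was not tested.

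In flox/flox mice 15 carriers rose and 9 fell from proBpreB to immature cells, against 28.7% and 27.2% of all genes, with a median of 0.31 against 0.02. Of the 10 rises of flox/WT mice 8 (80.0%) were among the 15 of flox/flox mice (53.3%), and of 9 falls 7 (77.8%) were shared. Over all tested genes 77.5% of the rises of flox/WT mice were shared, which made 64.8% of those of flox/flox mice, and 74.0% and 69.1% of the falls, so the carriers lay near the background. All 20 proliferation genes and 10 of 11 T and natural killer cell markers fell at this step, and 12 of 13 neutrophil and monocyte, 11 of 14 erythroid and 10 of 11 mature B cell markers rose; their part in the carrier results was not tested. Slc25a53 (1.09), the S-adenosylmethionine carrier Slc25a26 (1.05), Slc25a11 (1.01), Slc25a15 (0.99), Slc25a24 (0.88) and Slc25a29 (0.74), a carrier of basic amino acids, led the rises. Slc25a27 went from 104 counts over the proBpreB libraries to 0 in immature ones, at least 24.6-fold lower against a floor of 3 counts over the group. That floor is for counting error only, and libraries of a group spread more than counting error. As in flox/WT mice, Slc25a27 may have passed the filter on counts through its proBpreB reads, so the fall is a description. Slc25a42 (-1.82), Slc25a40 (-1.74), Slc25a35 (-1.60), Slc25a51 (-0.93) and Slc25a45 (-0.87) fell with edgeR adjusted p-values from 4.58e-08 to 0.000994. Slc25a37 fell at this step in flox/WT (-0.52, adjusted p = 0.00323) and rose in flox/flox mice (0.54, adjusted p = 0.00180), as its interaction above measures. The Slc25a29 rise was lost without proBpreB flox/flox mouse 1 (adjusted p = 0.0649), 2 (0.0712) or 4 (0.105), immature flox/flox mouse 1 (0.0626), 3 (0.0752) or 4 (0.0693), or a filter on low counts (0.0548).

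From immature to mature flox/flox cells 5 carriers rose and 8 fell, against 12.9% and 13.6% of all genes, with a median of -0.01 against 0.01. Of the 7 falls of flox/WT mice 5 (71.4%) were among the 8 of flox/flox mice (62.5%), against 44.4% and 55.8% over all tested genes; with 7 falls, this difference was not tested. Of 20 proliferation genes 1 rose and 0 fell at this step, 7 of 11 mature B cell markers rose, and 1 of 13 neutrophil and monocyte and 1 of 14 erythroid markers rose; their part in the carrier results was not tested. Slc25a53 (-1.27), Slc25a23 (-0.94), Slc25a15 (-0.94), Slc25a4 (-0.73) and Slc25a5 (-0.62) fell, as did Slc25a37 (-0.45, edgeR adjusted p = 0.0159), which had risen at this step in flox/WT mice. Slc25a42 (1.47), Slc25a45 (0.69), Slc25a33 (0.59), Slc25a46 (0.35), an outer membrane protein, and Slc25a3 (0.32) rose. Of these only Slc25a45 rose under all its alternatives: Slc25a42 missed the threshold without immature mouse 3 (adjusted p = 0.0551). Slc25a33 missed it without immature mouse 1 (0.0809), 2 (0.0507), 3 (0.0583) or 4 (0.0781) or mature mouse 1 (0.0603) or 2 (0.110), Slc25a46 without mature mouse 3 (0.226) or 1 (0.0511) or immature mouse 1 (0.169) or 3 (0.0663), and Slc25a3 without mature mouse 3 (0.178) or 2 (0.0643) or immature mouse 2 (0.0734), 3 (0.0863) or 4 (0.0928). Without immature mouse 1, 2 or 4 or mature mouse 1 or 3, 3 carriers rose, and without immature mouse 3, 1 did. Slc25a23 was lost without immature mouse 1 (0.108) or mature mouse 1 (0.0576) or 3 (0.0642), and Slc25a37 without immature mouse 1 (0.0780) or mature mouse 2 (0.0734).

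**Figure D5:**
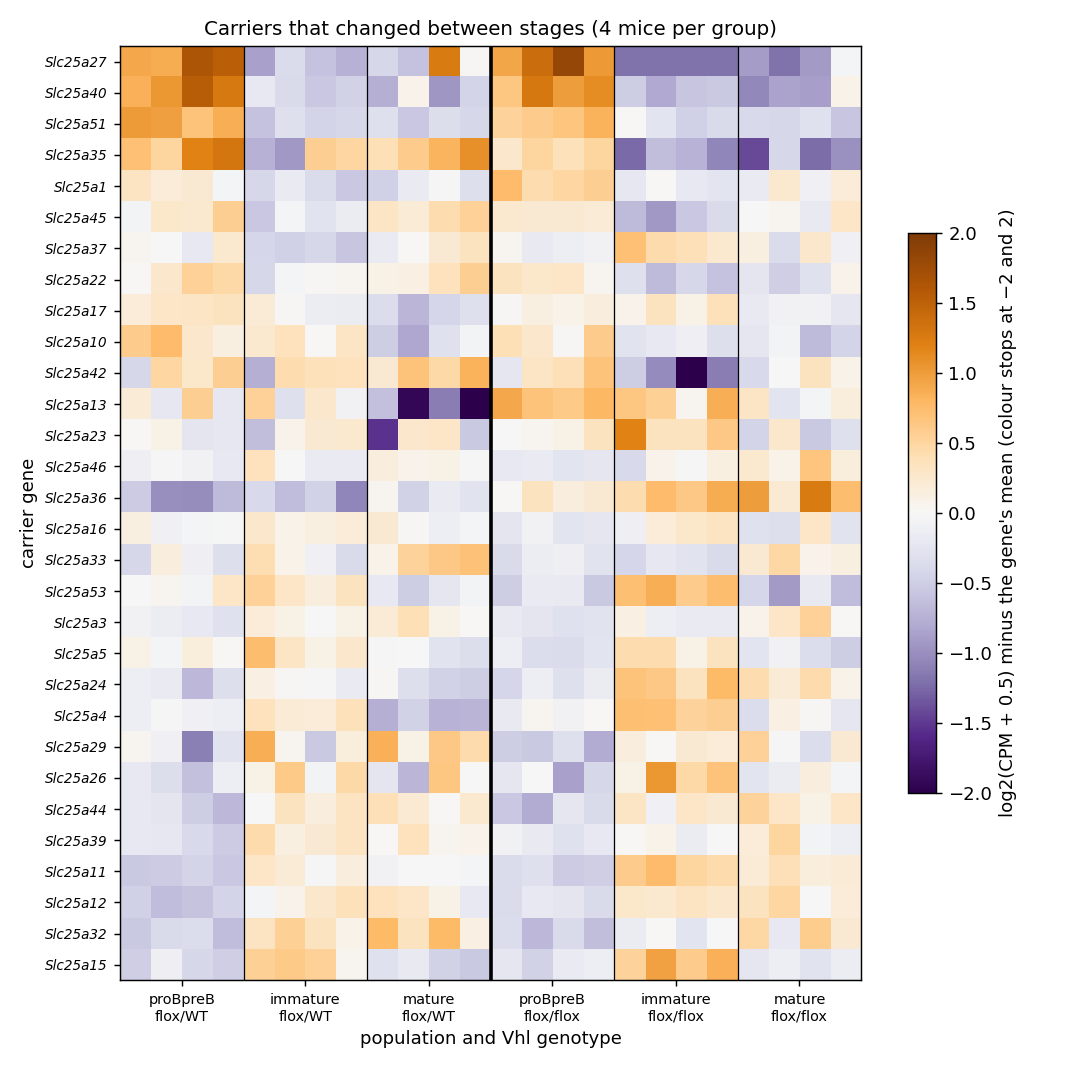
Of the 31 carriers that changed in at least 1 stage comparison, 30 are shown (rows) as log2(CPM + 0.5) minus the mean of the gene over 24 libraries (columns, 4 mice per group, flox/WT left of the thick line and flox/flox right of it); orange is above and purple below the mean, and the colour stops at -2 and 2. Slc25a27, Slc25a40 and Slc25a51 are high in proBpreB cells of both genotypes, and Slc25a15 and Slc25a11 low there.

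The 8 carriers with too few counts to test were Slc25a2 (highest count in a library 5), Slc25a18 (17), Slc25a31 (38), Slc25a34 (1), Slc25a41 (3), Slc25a47 (12), Slc25a48 (0) and Slc25a54 (0). The last pair had 0 counts in all 24 libraries. Slc25a18 is a glutamate carrier, Slc25a2 an ornithine carrier, Slc25a41 an ATP-Mg/phosphate carrier and Slc25a31 the ADP/ATP carrier of male germ cells.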

How the data were processed

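Libraries came from a SMARTer low-input kit, per the labels' protocols. The submitters' processing notes name HISAT2, featureCounts, Trim Galore, FastQC, CASAVA and DESeq2, with mm10 (GRCm38) as the build. The gene annotation, the versions and whether strand was used were not given in the sources used here. The authors deposited raw counts for 24421 genes, which were used here as deposited, and a normalised table that was not used. Symbols of Slc25a and a number gave 47 carriers.

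All 24 libraries entered 1 edgeR 4.0.16 fit in R 4.3.3 (quasi-likelihood test with robust fitting and TMM factors, genes kept by filterByExpr over groups, 18 residual degrees of freedom). It tested 12850 genes. P-values were adjusted by Benjamini-Hochberg within each of 10 comparisons: 3 genotype contrasts, 4 stage contrasts and 3 interactions, with a threshold of 0.05. The code of the fit was tried on simulated counts with no mouse effect and no RNA of other cells, which does not test the calls given here. Intervals of log2 fold changes are 95% intervals. Carriers and lists were chosen with earlier results of these data known.

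Carriers past the threshold are named for genotypes, up to 6 per direction by log2 fold change for stages and up to 4 per other list. Carriers called in 2 or more populations are given library by library. Some items that this rule named, and some markers, are not reported here, though they count in the totals. A few others, such as Slc25a1, Slc25a10 and Ucp2, were named after their values were seen. The spread of libraries within a group exceeded counting noise (lowest chi-square per degree of freedom 5.98), so no library was counted as a repeat.

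A mouse gave 1 library of each population, so stages are paired by animal. The main fit had no term for the mouse, so its stage and interaction tests treated the libraries of a mouse as independent. The mouse entered only as a block in an alternative fit. Deviations of the 16 same-mouse pairs correlated at -0.284 to 0.276 over 5000 genes, and 8 exceeded 0.1. Exon lengths and overlaps came from GENCODE vM21, and positions and promoters from RefSeq (GRCm38). Alternatives were RLE factors, other filters on low counts, only the groups compared, DESeq2 1.42.0, a replicate block and leaving out each library.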

Additional observations from a re-analysis of the deposited data

Results flagged for a closer look

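In 13 carriers, 78 groups of 4 libraries were searched for a library apart from the rest, and 5 were found; chance gives about 1 in 20. Slc25a38 was at 17.2 CPM in proBpreB flox/flox mouse 3 and at 16.3 to 16.4 in the others. Slc25a11 was at 220.1 CPM in mature flox/flox mouse 2 (others 188.8 to 194.2) and at 124.3 CPM in proBpreB flox/WT mouse 3 (others 115.3 to 116.6). Slc25a4 was at 67.4 CPM in mature flox/WT mouse 2 (others 54.8 to 56.3). Slc25a42 was at 1.26 CPM in immature flox/WT mouse 1 (others 3.33 to 3.55).

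The genotype effect differed between populations for 3 carriers by edgeR's interaction test. For Slc25a37 the log2 difference was 1.06 in immature against proBpreB cells and -1.06 in mature against immature cells. For Slc25a53 it was 0.82 and -0.70, and for Slc25a4 it was 0.53 in mature against proBpreB cells.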

How the results depend on the processing

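No named carrier changed direction: of 992 recomputed values for 69 carrier results, 900 kept their call, 92 lost it and 0 reversed, and 51 results kept the call throughout. Counts of carriers moved by more than 1.5 times as follows. With no filter on low counts, 0 carriers passed the mature against proBpreB interaction. With a filter of 10 CPM in 4 libraries, 2 were higher in proBpreB, 1 lower in immature and 2 lower in mature flox/flox cells, and 4 rose from immature to mature flox/WT cells; fewer genes were tested. With DESeq2, 2 were higher and 2 lower in proBpreB, 5 were lower in immature cells, 5 rose from immature to mature flox/WT cells, and 6 and 2 passed the interactions of immature and of mature against proBpreB cells. With only the groups compared, 1 was lower in mature cells, 2 rose from immature to mature flox/flox cells, and 4 and 0 passed the same interactions. Same-numbered mice of the genotypes share only a number (12 pairs, correlations -0.302 to 0.544, 5 best with their own number); this replicate block gave 2 higher carriers in proBpreB and 5 lower in immature cells. With the mouse as a replicate block, 4 carriers rose from immature to mature flox/WT cells and 2 passed the mature against proBpreB interaction, and no other count moved this far. Leaving out 1 library at a time gave 1 to 2 higher carriers in proBpreB cells, 2 to 5 lower in immature cells, 2 to 6 lower in mature cells, 2 to 5 rises from immature to mature flox/WT and 1 to 5 in flox/flox cells, and 2 to 4, 1 to 3 and 0 to 1 passing the interactions of immature against proBpreB, mature against immature and mature against proBpreB. The cause of these moves was not tested, except where stated. Carriers under about 5 CPM, such as Slc25a21 and Slc25a42, rest on few counts.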

Other observations

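Slc25a31, the ADP/ATP carrier of male germ cells, was read almost wholly in 1 control mouse. Of its 85 counts, 80 came from flox/WT mouse 4, namely 31 from its proBpreB, 38 from its immature and 11 from its mature library. Another 5 came from flox/WT mouse 1, with 4 in proBpreB and 1 in immature cells. The other flox/WT mice and all 12 flox/flox libraries had 0 counts.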
